A study of Homo sapiens with 12 samples.

Results

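Caveolae, the small flask-shaped pits of the plasma membrane, are described here through 8 genes. They are the caveolins CAV1 and CAV2, the cavins CAVIN1, CAVIN2 and CAVIN3, the neck proteins EHD2 and PACSIN2, and NOSTRIN, a membrane-bending partner of nitric oxide synthase. The members were taken as every probe set that the platform annotation assigns to one of these symbols alone, with the older cavin names PTRF, SDPR and PRKCDBP accepted. This gave 18 probe sets for the 8 genes, out of 41091 probe sets with a single symbol for 19775 genes. The set was chosen with measured values of these arrays in view, and which values is not recorded. NOSTRIN and CAV2 were treated as selected on their differences from Mock and Parental cells, so those differences are described below with no test and support nothing. The other 6 genes were tested with their 14 probe sets. If CAV1 or another of them was also chosen on its values, its p-values are no more than a description.

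The cells are IGROV-1, a line established from a human ovarian carcinoma, and their RNA was read on Affymetrix U133 Plus 2.0 arrays, with 3 arrays in each of 4 groups. The shCXCR4_I and shCXCR4_II cells carry different short hairpin RNAs (shRNAs) against CXCR4, the receptor for the chemokine CXCL12, and were selected as individual clones. Mock cells carry a scrambled hairpin and are a pool of clones. These 3 groups were transfected and kept for 30 days in puromycin at 4 µg/ml, whereas Parental cells are the untransfected line. Knockdown and clonal origin therefore cannot be told apart in any comparison of a clone with Mock. Likewise, transfection, a hairpin and puromycin selection cannot be told apart in any comparison with Parental. The labels do not say that the arrays of a group came from separate cultures, so the p-values rest on the spread among arrays alone, and that spread may be technical.

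A caveola is built from a membrane coat of caveolins, chiefly CAV1 with CAV2 as its binding partner, and an outer coat of cavins. CAVIN1 is needed for the pits to form, CAVIN2 and CAVIN3 modify them, and EHD2 with PACSIN2 sits at the neck and holds or shapes it. NOSTRIN and PACSIN2 are F-BAR proteins, which bind and bend membrane, and NOSTRIN is known for binding endothelial nitric oxide synthase and moving it away from the plasma membrane. Caveolae take part in endocytosis, in buffering membrane tension and in organising receptors in many epithelial and endothelial cells.

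CXCR4, the gene aimed at, was lower in both clones on each of its 3 probe sets. On 217028_at it read 7.06, 7.10 and 7.11 in shCXCR4_I and 6.39, 6.73 and 6.75 in shCXCR4_II, against 8.51, 8.60 and 8.64 in Mock (log2 difference -1.49 and -1.96; limma adjusted p = 8.47e-08 and 4.44e-09). On 217028_at CXCR4 stood at 42.3% of Parental in shCXCR4_I and 30.6% in shCXCR4_II. The shares were 61.2% and 54.3% on 211919_s_at and 56.5% and 47.3% on 209201_x_at. Mock lay above Parental by 0.25, 0.36 and 0.30 on these probe sets (limma adjusted p = 0.0958, 0.0465 and 0.11). Correlations between arrays of a group ran between 0.9955 and 0.9977. The interquartile range of the log2 values was 3.374 to 3.427 on Mock arrays and 3.191 to 3.314 on the others, so Mock stood a little apart. The mean log2 value of 8 epithelial and ovarian carcinoma markers was 8.85 to 8.89 in shCXCR4_I, 8.57 to 8.61 in shCXCR4_II, 8.79 to 8.80 in Mock and 8.77 to 8.84 in Parental. Of the 8, 1 lay below the array median on all 12 arrays, and the markers did not move together. CDH1 differed from Mock by 0.28 in shCXCR4_I and -0.70 in shCXCR4_II (limma adjusted p = 0.017 and 1.78e-05). EPCAM differed by 0.27 and 0.09 (limma adjusted p = 0.0314 and 0.466). KRT18 and KRT19 differed by 0.01 and -0.04 in shCXCR4_I and by -0.36 and -0.34 in shCXCR4_II (limma adjusted p = 0.955, 0.706, 0.00151 and 0.0016). WT1 was lower in shCXCR4_II (-0.28; limma adjusted p = 0.0311), and KRT8, PAX8 and MUC16 passed in neither clone. Between Mock and Parental, CDH1 differed by -0.86, KRT18 by 0.41 and KRT19 by 0.40 (limma adjusted p = 3.36e-06, 0.000854 and 0.000617). The mean of 6 endothelial markers lay at 4.19 to 4.33 in shCXCR4_I, 4.17 to 4.31 in shCXCR4_II, 4.13 to 4.35 in Mock and 4.27 to 4.37 in Parental, with 3 of the 6 below the array median on all 12 arrays.

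CAV1 was highest in Parental cells, lower in Mock cells and lowest in both CXCR4 shRNA clones. CAV1 encodes the main structural protein of the caveolar coat. Its probe set 212097_at had log2 values of 5.47, 5.67 and 5.58 in shCXCR4_I, 5.73, 5.65 and 5.62 in shCXCR4_II, 6.36, 6.28 and 6.35 in Mock and 7.25, 7.42 and 7.41 in Parental. No clone array reached a Mock array, and no Mock array reached a Parental array, while the clones overlapped each other. CAV1 was thus -0.76 ± 0.07 log2 units from Mock in shCXCR4_I (SE, n = 3 each; limma adjusted p = 9.69e-06), which is 59% of the Mock level. In shCXCR4_II the difference from Mock was -0.66 ± 0.07 (limma adjusted p = 3.38e-05), or 63.1% of Mock. CAV1 thus fell in both clones relative to the scrambled pool.

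CAV1 was also lower in Mock cells than in Parental cells. On 212097_at Mock differed from Parental by -1.03 ± 0.07 (limma adjusted p = 7.19e-07), which left 49.1% of the Parental level. Against Parental, shCXCR4_I stood at 29% and shCXCR4_II at 31% (limma adjusted p = 2.25e-09 and 3.58e-09). The second CAV1 probe set, 203065_s_at, gave the same order of groups. It read 4.55, 4.79 and 4.71 in shCXCR4_I, 4.98, 4.99 and 4.96 in shCXCR4_II, 5.61, 5.55 and 5.48 in Mock and 6.35, 6.39 and 6.18 in Parental. Its differences from Mock were -0.86 in shCXCR4_I and -0.57 in shCXCR4_II, and Mock differed from Parental by -0.76 (limma adjusted p = 5.97e-06, 0.00027 and 2.49e-05). Here every shCXCR4_I array lay below every shCXCR4_II array, but the difference of -0.30 did not pass the test (limma adjusted p = 0.053). In a bulk sample, fewer cells with CAV1 RNA and less CAV1 RNA per cell cannot be told apart.

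CAV2 followed another order than CAV1, with the low point in Mock cells. CAV2 binds CAV1 and in many cells reaches the plasma membrane only with it. On 203324_s_at it had 8.99, 9.18 and 9.06 in shCXCR4_I, 8.84, 8.84 and 9.19 in shCXCR4_II, 7.51, 7.63 and 7.58 in Mock and 9.53, 9.52 and 9.51 in Parental. Every Mock array lay below every other array, both clones lay below Parental, and the clones overlapped. CAV2 in Mock was 26% of its Parental level, and the clones were 2.83-fold (shCXCR4_I) and 2.61-fold (shCXCR4_II) above Mock. Against Parental the clones stood at 73.5% and 67.7%.

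The second CAV2 probe set was also lowest in Mock, with a smaller gap between the clones and Parental. On 203323_at CAV2 had 8.14, 8.22 and 8.09 in shCXCR4_I, 7.57, 7.86 and 8.05 in shCXCR4_II, 6.48, 6.40 and 6.25 in Mock and 8.13, 8.27 and 8.25 in Parental. The log2 differences were 1.78 and 1.45 for shCXCR4_I and shCXCR4_II from Mock, and -1.84 for Mock from Parental. The shCXCR4_I arrays overlapped the Parental ones here, with a mean difference of -0.07, while every shCXCR4_II array lay below every Parental array, with a mean difference of -0.39. The third CAV2 probe set, 213426_s_at, lay below the array median on 12 of 12 arrays, with group means of 4.08 ± 0.12 in shCXCR4_I, 3.96 ± 0.10 in shCXCR4_II, 4.00 ± 0.25 in Mock and 4.15 ± 0.07 in Parental (SD, n = 3 each). Its 4 group means lay within 0.19 log2 units.

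CAV2 and CAV1 lie side by side on chromosome 7 and are read from the same strand. Their promoter windows are shown because the genes are neighbours whose levels took different orders across the groups. Each window runs from 250 bases before to 50 bases after an annotated start (RefSeq, GRCh38.p14), and the capitals mark GC boxes (GGGCGG, or CCGCCC on the other strand), the letters bound by SP1-like factors. The first of 2 CAV2 windows lies at chr7:116499488-116499787 and the first of 3 CAV1 windows at chr7:116524759-116525058, 25271 bases further on, both on the plus strand.
CAV2: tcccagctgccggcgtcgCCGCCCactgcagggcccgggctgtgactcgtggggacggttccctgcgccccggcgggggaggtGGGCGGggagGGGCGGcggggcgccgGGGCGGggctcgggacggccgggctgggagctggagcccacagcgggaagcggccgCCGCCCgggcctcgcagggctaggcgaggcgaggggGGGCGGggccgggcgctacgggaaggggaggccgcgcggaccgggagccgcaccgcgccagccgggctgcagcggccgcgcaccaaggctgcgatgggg
CAV1: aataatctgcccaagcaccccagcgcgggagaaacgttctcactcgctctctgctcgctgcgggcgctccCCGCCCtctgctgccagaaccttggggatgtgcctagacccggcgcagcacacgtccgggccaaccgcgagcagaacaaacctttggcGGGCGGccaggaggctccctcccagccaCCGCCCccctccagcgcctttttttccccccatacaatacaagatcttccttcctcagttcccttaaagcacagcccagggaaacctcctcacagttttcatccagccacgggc
The CAV2 window printed holds 6 GC boxes and 43 CpG dinucleotides at 82.7% G and C, and 5.0% of all 35116 promoter windows hold as many CpG. The CAV1 window printed holds 3 GC boxes and 19 CpG at 62.3% G and C, and 42.9% of all windows hold as many CpG. Each GC box contains a CpG itself, and 45.0% of all windows hold at least 1 GC box. The windows at other annotated starts differ from these. The second CAV2 window holds 4 GC boxes and 33 CpG at 71.0% G and C, the second CAV1 window 3 GC boxes and 18 CpG at 61.7%, and the third CAV1 window 2 GC boxes and 36 CpG at 71.0%. Which gene has more CpG therefore depends on the start chosen, and which start these cells use was not measured. None of the 5 windows holds the letters TATAAA, which occur on either strand in 11.5% of windows.

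**Figure D1:**
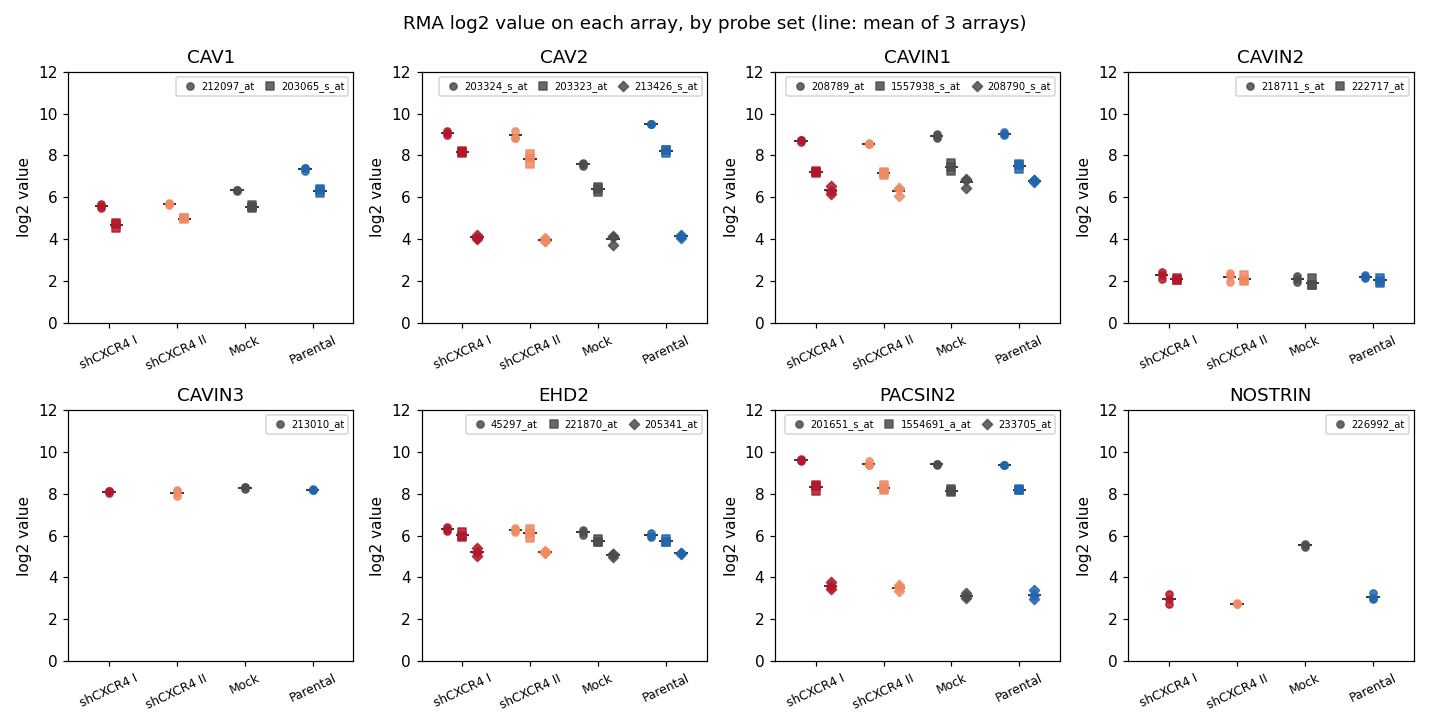
RMA log2 value (y axis) of each member gene on each of the 12 arrays, by group (x axis), with a marker for each probe set and a line at the mean of 3 arrays. CAV1 steps up between the clones, Mock and Parental, CAV2 dips in Mock on 2 of its 3 probe sets, NOSTRIN reads 5.45 to 5.58 in Mock and 2.71 to 3.23 elsewhere, and the other genes stay within a narrow band.

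NOSTRIN was high in Mock cells alone. Its single probe set, 226992_at, had 2.95, 2.72 and 3.18 in shCXCR4_I, 2.72, 2.76 and 2.71 in shCXCR4_II, 5.53, 5.58 and 5.45 in Mock and 2.98, 3.23 and 3.02 in Parental. All 3 Mock arrays lay above the array median, and the 9 arrays of the other groups lay below it, where RMA values are near the array's background. NOSTRIN in Mock was 5.44-fold its Parental value, and the clones stood at 16.8% (shCXCR4_I) and 14.4% (shCXCR4_II) of Mock. These ratios of RMA values have a side near background, so they may understate the ratio of RNA. The shCXCR4_I arrays overlapped both Parental and shCXCR4_II, and no order is read among these 3 groups at that level. NOSTRIN is known as an endothelial gene, and among the endothelial markers PECAM1 read 6.69 ± 0.03 in shCXCR4_I and 6.59 ± 0.12 in shCXCR4_II, against 6.19 ± 0.12 in Mock (SD, n = 3 each). CDH5, VE-cadherin, read 2.53 ± 0.24 in shCXCR4_I and 2.75 ± 0.24 in shCXCR4_II, against 3.12 ± 0.21 in Mock. PECAM1 was thus higher in both clones than in Mock (limma adjusted p = 0.00131 and 0.00637), opposite to NOSTRIN. CDH5 was lower than Mock in shCXCR4_I (-0.59; limma adjusted p = 0.0111), as NOSTRIN was, and in shCXCR4_II its difference of -0.37 did not pass (limma adjusted p = 0.083). CDH5 lay below the array median on 12 of 12 arrays. VWF, KDR, TEK and CLDN5, the other endothelial markers, differed from Mock by -0.18 to 0.21 and did not pass, and VWF was lower in Mock than in Parental (-0.29; limma adjusted p = 0.0144). The 6 markers thus did not move in 1 direction, and their part in the NOSTRIN values was not tested.

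The NOSTRIN promoter window is shown beside those of the caveolins because its base composition differs from theirs. It lies at chr2:168802387-168802686 on the plus strand and has no GC box, so it carries no capitals.
NOSTRIN: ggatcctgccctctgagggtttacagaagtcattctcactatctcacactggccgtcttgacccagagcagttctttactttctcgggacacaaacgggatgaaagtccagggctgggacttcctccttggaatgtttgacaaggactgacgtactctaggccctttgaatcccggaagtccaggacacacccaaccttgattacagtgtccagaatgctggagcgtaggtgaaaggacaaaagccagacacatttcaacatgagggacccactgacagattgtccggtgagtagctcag
It holds 7 CpG at 51.0% G and C, against a median of 14 CpG and 58.7% over all windows, and 63.2% of windows hold at least as many CpG. Of the other members, EHD2 has a window with 1 GC box and 30 CpG, CAVIN2 one with 0 GC boxes and 5 CpG, and PACSIN2 has 6 windows with 3 to 27 CpG.

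CAVIN1, the cavin without which caveolae do not form, was lower in shCXCR4_II than in Mock, most firmly on 1 of its 3 probe sets, 208789_at. On 208789_at it had 8.73, 8.66 and 8.72 in shCXCR4_I, 8.56, 8.53 and 8.59 in shCXCR4_II, 8.83, 8.92 and 9.04 in Mock and 8.98, 9.10 and 9.03 in Parental. All clone arrays lay below all Mock and Parental arrays, and Mock overlapped Parental. CAVIN1 stood at 77.5% of Mock in shCXCR4_II (log2 difference -0.37 ± 0.07, SE; limma adjusted p = 0.00223) and at 85.5% in shCXCR4_I (-0.23 ± 0.07; limma adjusted p = 0.0361). The call in shCXCR4_I was lost after quantile normalization (difference -0.14, limma adjusted p = 0.196) and in 7 other settings, with limma adjusted p between 0.00604 and 0.196 over 22 settings. The call in shCXCR4_II held in 22 of 22 settings, with limma adjusted p up to 0.0226.

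The other CAVIN1 probe sets moved the same way with less certainty. CAVIN1 on 1557938_s_at differed from Mock by -0.25 in shCXCR4_I and -0.30 in shCXCR4_II (limma adjusted p = 0.0967 and 0.045). On 208790_s_at the differences were -0.38 and -0.43 (limma adjusted p = 0.0577 and 0.0301). The shCXCR4_II call on 1557938_s_at held in only 6 of 21 settings and that on 208790_s_at in 16 of 21, and both were lost after quantile normalization (limma adjusted p = 0.244 and 0.0781). Against Parental, CAVIN1 on 208789_at was at 79.4% in shCXCR4_I and 71.9% in shCXCR4_II (limma adjusted p = 0.00489 and 0.000376), and these calls held in 22 of 22 settings. Mock did not differ from Parental past the test on any CAVIN1 probe set, with differences between -0.11 and -0.05.

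CAVIN2 and CAVIN3 passed the limma test in 0 of the 6 comparisons. At an unadjusted limma p under 0.05, CAVIN3 passed in 1 comparison, shCXCR4_II against Mock, and CAVIN2 in 0. CAVIN2, which binds phosphatidylserine and bends membrane, lay below the array median on 12 of 12 arrays on both of its probe sets. Its group means on 218711_s_at were 2.28 ± 0.15 in shCXCR4_I, 2.19 ± 0.24 in shCXCR4_II, 2.08 ± 0.13 in Mock and 2.19 ± 0.07 in Parental (SD, n = 3 each). CAVIN3, which binds protein kinase C delta, had 8.12, 8.05 and 8.15 in shCXCR4_I, 7.87, 8.10 and 8.18 in shCXCR4_II, 8.20, 8.31 and 8.30 in Mock and 8.19, 8.22 and 8.17 in Parental. All clone arrays of CAVIN3 lay below all Mock arrays, with mean differences of -0.17 in shCXCR4_I and -0.22 in shCXCR4_II (limma adjusted p = 0.165 and 0.0625). The shCXCR4_II difference passed in 6 of 22 settings.

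EHD2 and PACSIN2, the proteins of the caveola neck, had small differences, and those past the test were higher in the clones. EHD2 is an ATPase that keeps caveolae at the cell surface. On 221870_at it had 5.92, 5.99 and 6.19 in shCXCR4_I, 6.33, 6.13 and 5.90 in shCXCR4_II, 5.84, 5.67 and 5.69 in Mock and 5.67, 5.81 and 5.67 in Parental. The clones lay above both controls, by 0.30 (shCXCR4_I) and 0.39 (shCXCR4_II) from Mock (limma adjusted p = 0.0602 and 0.0191). The shCXCR4_II call held in 15 of 20 settings. The other EHD2 probe sets differed from Mock by 0.17 and 0.11 on 45297_at and by 0.13 and 0.15 on 205341_at, for shCXCR4_I and shCXCR4_II, and none of these passed. Against Parental, EHD2 rose in shCXCR4_I on 45297_at (0.30; limma adjusted p = 0.0374) and in shCXCR4_II on 221870_at (0.40; limma adjusted p = 0.0213), calls that held in 16 of 22 and 16 of 20 settings.

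PACSIN2 links membrane curvature to dynamin and actin regulators. Its brightest probe set, 201651_s_at, had 9.65, 9.59 and 9.56 in shCXCR4_I, 9.55, 9.38 and 9.39 in shCXCR4_II, 9.42, 9.35 and 9.44 in Mock and 9.38, 9.37 and 9.39 in Parental. The shCXCR4_I arrays were above all control arrays, with differences of 0.20 from Mock and 0.22 from Parental (limma adjusted p = 0.0534 and 0.0431), while shCXCR4_II overlapped Mock. The call against Parental held in 12 of 22 settings, and the difference from Mock passed in 8 of 22. On 1554691_a_at PACSIN2 passed in none of the comparisons, with 0.17 and 0.16 from Mock in shCXCR4_I and shCXCR4_II. The third probe set, 233705_at, was below the array median on 12 of 12 arrays, and its differences from Mock of 0.47 and 0.38 passed (limma adjusted p = 0.0167 and 0.0411). The shCXCR4_II call held in 10 of 19 settings and the shCXCR4_I call in 16 of 19.

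Of the 14 tested probe sets, 1 was higher and 3 were lower in shCXCR4_I than in Mock, beside 17.6% of all probe sets called in either direction. In shCXCR4_II against Mock, 2 were higher and 5 lower, beside 19.4% of all. For Mock against Parental, 2 were lower, both of CAV1, beside 10.5% of all. Against Parental, 3 were higher and 4 lower in shCXCR4_I, beside 12.4%, and 1 was higher and 5 were lower in shCXCR4_II, beside 12.5%. The CAV1 calls in these 5 comparisons held in all settings tried, 22 for 212097_at and 20 for 203065_s_at. The median log2 difference of the 14 was 0.15 in shCXCR4_I and 0.07 in shCXCR4_II against Mock, and -0.06 in Mock against Parental, beside 0.02, 0.02 and -0.0025 over all probe sets tested. The number of member probe sets called against Mock fell to 2 in shCXCR4_I and 3 in shCXCR4_II when Mock replicate 2 or 3 was left out.

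**Figure D2:**
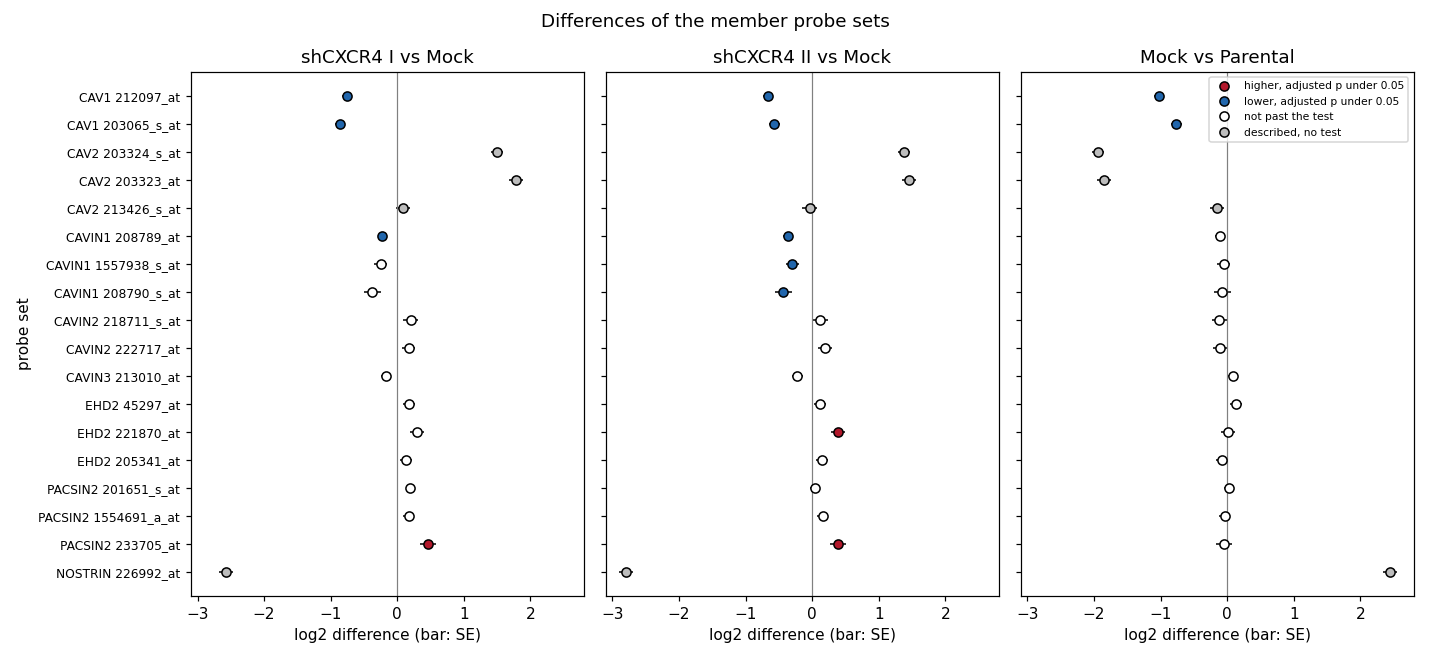
Log2 difference (x axis; bar, limma SE) of the 18 member probe sets (rows) in shCXCR4_I against Mock, shCXCR4_II against Mock and Mock against Parental, coloured by the limma test at an adjusted p under 0.05, with CAV2 and NOSTRIN in grey because they were treated as selected on these values. CAV1 lies left of 0 in each panel, while CAV2, on 2 of its 3 probe sets, lies well right of 0 in the clone panels and left of it for Mock against Parental, with NOSTRIN opposite to CAV2.

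The clones were also set against each other, which involves neither control. Whether this comparison played a part in the choice of the members is not recorded. If it did, its p-values are no more than a description. By limma 0 of the 18 probe sets of the 8 genes passed in shCXCR4_I against shCXCR4_II, beside 4.11% of all probe sets, and 3 had an unadjusted p under 0.05. CAV1 differed by -0.30 on 203065_s_at, as given above, a call made in 3 of 20 settings (limma adjusted p = 0.0186, 0.0466 and 0.05 after rounding). CAV1 differed by -0.10 ± 0.07 on 212097_at, CAV2 by 0.12 ± 0.09 on 203324_s_at and by 0.33 ± 0.10 on 203323_at, and NOSTRIN by 0.22 ± 0.10 (SE; limma adjusted p = 0.571, 0.577, 0.108 and 0.311). Every shCXCR4_I array of CAV2 lay above every shCXCR4_II array on 203323_at, and this call was made in 3 of 21 settings. Among the cavins, EHD2 and PACSIN2 the largest difference was 0.16, of PACSIN2 on 201651_s_at. These p-values do not show that the clones are alike, and CXCR4 itself differed between the clones by 0.47 on 217028_at (limma adjusted p = 0.00899). The other CXCR4 probe sets differed by 0.17 on 211919_s_at and 0.26 on 209201_x_at and did not pass (limma adjusted p = 0.463 and 0.262).

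The genes that flank the caveolins and NOSTRIN were read as well, a choice made after the members' values were seen. On chromosome 7 the order is TFEC, TES, CAV2, CAV1, MET and CAPZA2. TES, a focal adhesion protein next to CAV2, differed between Mock and Parental by -0.24 ± 0.06 (SE; limma adjusted p = 0.0211), where CAV2 differed by -1.95 and CAV1 by -1.03. TES was also lower than Parental in the clones, by -0.23 in shCXCR4_I and -0.28 in shCXCR4_II (limma adjusted p = 0.0224 and 0.00682). From Mock, TES differed by 0.01 in shCXCR4_I and -0.04 in shCXCR4_II (limma adjusted p = 0.931 and 0.653). MET, the hepatocyte growth factor receptor beyond CAV1, differed from Mock by 0.03 in shCXCR4_I and -0.22 in shCXCR4_II, and between Mock and Parental by 0.02 (limma adjusted p = 0.832, 0.0278 and 0.887). CAPZA2, an actin-capping subunit, passed in none of the comparisons, and neither did TFEC, which read near 2 on every array. Whether the caveolins differed more than the genes beside them was not tested.

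On chromosome 2 the order is STK39, CERS6, NOSTRIN, SPC25 and G6PC2. STK39, a stress kinase, differed by 0.34 between Mock and Parental, and CERS6, a ceramide synthase, by 0.03 (limma adjusted p = 0.0594 and 0.875), where NOSTRIN differed by 2.44. SPC25, a kinetochore subunit, was lower in both clones, at -0.78 from Mock in shCXCR4_I and -0.41 in shCXCR4_II (limma adjusted p = 6.15e-05 and 0.00769). STK39 and CERS6 were lower than Mock in shCXCR4_II, at -0.54 and -0.24 (limma adjusted p = 0.00348 and 0.033). In shCXCR4_I they were at -0.19 and -0.04 and did not pass. G6PC2 passed in none of the comparisons.

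**Figure D3:**
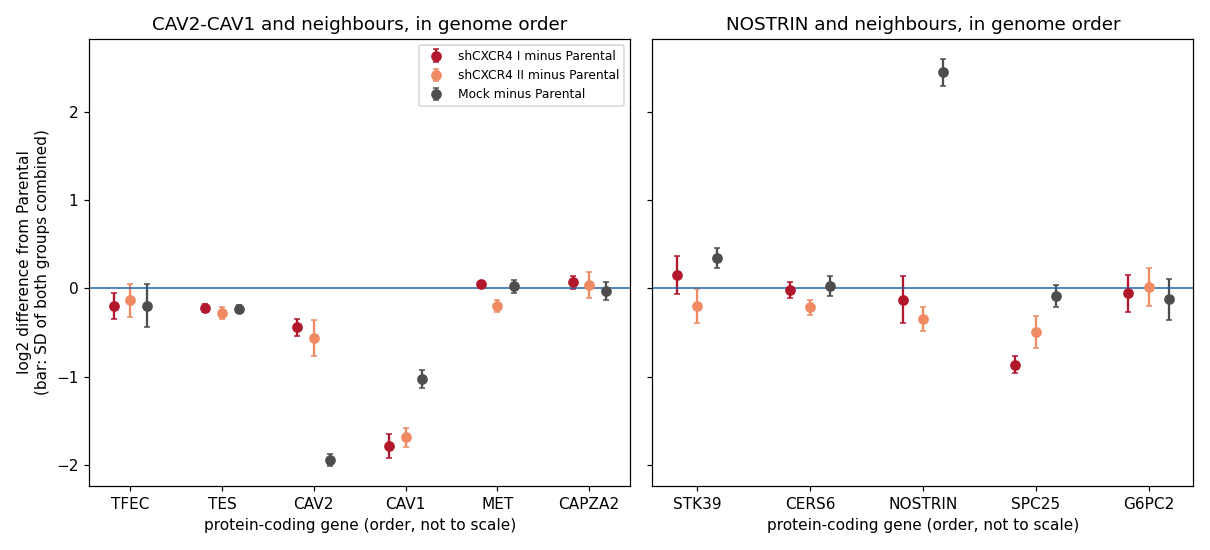
Log2 difference from Parental (y axis; bar, the SDs of both groups combined as the root of their summed squares) of CAV2, CAV1 and NOSTRIN and the protein-coding genes beside them (x axis, in genome order and not to scale) for shCXCR4_I, shCXCR4_II and Mock, with Parental as the line at 0. CAV2, CAV1 and the Mock value of NOSTRIN stand farthest from 0 together with SPC25 in the clones, TES lies 0.23 to 0.28 below the line in each group, and STK39 lies 0.34 above it in Mock.

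Other genes of these pathways came from 5 lists with 60 genes, of which 58 had a single-symbol probe set. In shCXCR4_I against Mock 5 of the 58 were higher and 11 lower, beside 8.45% and 12.2% of all genes. In shCXCR4_II against Mock 4 were higher and 16 lower, beside 9.08% and 13.4% of all. Their median log2 difference was -0.11 in shCXCR4_I and -0.08 in shCXCR4_II, against 0.02 and 0.02 over all genes. For Mock against Parental 5 were higher and 2 lower, beside 8.08% and 4.41% of all genes. Against Parental 6 were higher and 7 lower in shCXCR4_I, beside 7.06% and 7.44%, and 3 were higher and 8 lower in shCXCR4_II, beside 6.11% and 8.33%. Between shCXCR4_I and shCXCR4_II 3 were higher, namely ERLIN2, FCHO2 and ROR1, beside 3.56% of all genes higher and 1.65% lower.

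Among the 14 measured caveola coat, neck and partner genes, 1 was higher and 3 were lower than Mock in shCXCR4_I, and 1 was higher and 4 were lower in shCXCR4_II. Over all genes, 8.45% were higher and 12.2% lower in shCXCR4_I, and 9.08% and 13.4% in shCXCR4_II. DNM3, a dynamin, which pinches vesicles off the membrane, had 3.45, 3.37 and 3.51 in shCXCR4_I, 3.05, 3.40 and 3.35 in shCXCR4_II, 4.03, 4.37 and 3.87 in Mock and 4.37, 4.31 and 3.95 in Parental. The clones lay below both controls, at -0.64 and -0.82 from Mock (limma adjusted p = 0.00505 and 0.00104). DNM3 was below the array median on 9 of 12 arrays, among them all clone arrays, so its differences may be understated. FYN, a Src family kinase that acts on CAV1, took the order of CAV2, with 5.24, 5.28 and 5.36 in shCXCR4_I, 5.18, 5.26 and 5.14 in shCXCR4_II, 4.51, 5.03 and 4.90 in Mock and 5.86, 5.97 and 6.05 in Parental. It differed by -1.14 between Mock and Parental and was 0.48 and 0.38 above Mock in shCXCR4_I and shCXCR4_II (limma adjusted p = 1.14e-05, 0.00788 and 0.0261). ROR1, a receptor reported to hold CAV1 and CAVIN1 together, was higher in Mock than in Parental (0.84; limma adjusted p = 2.74e-05). ROR1 was lower than Mock in shCXCR4_II (-0.67; limma adjusted p = 0.000178) and differed by -0.06 in shCXCR4_I (limma adjusted p = 0.677).

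Among the 16 F-BAR proteins related to NOSTRIN and PACSIN2, 2 were higher and 3 lower than Mock in shCXCR4_I, and 2 were higher and 5 lower in shCXCR4_II. The shares over all genes were 8.45% higher and 12.2% lower in shCXCR4_I, and 9.08% and 13.4% in shCXCR4_II. TRIP10, which couples CDC42 to membrane curvature, had 7.97, 7.89 and 7.89 in shCXCR4_I, 7.85, 7.84 and 7.79 in shCXCR4_II, 8.21, 8.27 and 8.30 in Mock and 7.67, 7.58 and 7.56 in Parental. Like NOSTRIN, TRIP10 was highest in Mock, by 0.65 over Parental, and both clones stood between the controls (limma adjusted p = 1.19e-05). The tyrosine kinase FER and the actin regulator FCHSD2 were lower than Mock in both clones, FER at -0.39 and -0.43 and FCHSD2 at -0.34 and -0.50 (limma adjusted p = 0.00406, 0.00234, 0.0146 and 0.00142). SRGAP1, a GTPase-activating protein of the Slit-Robo pathway, was lower in Mock than in Parental (-0.44; limma adjusted p = 0.00563).

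Of the 9 nitric oxide genes, 2 were higher and 1 lower than Mock in shCXCR4_I, and 1 was higher in shCXCR4_II. Beside these stand 8.45% higher and 12.2% lower of all genes in shCXCR4_I, and 9.08% and 13.4% in shCXCR4_II. NOS3, the endothelial nitric oxide synthase that NOSTRIN and CAV1 both bind, had 5.14, 5.25 and 5.08 in shCXCR4_I, 5.08, 4.99 and 5.12 in shCXCR4_II, 4.60, 4.79 and 4.52 in Mock and 4.63, 4.35 and 4.49 in Parental. The clones lay above both controls without overlap, by 0.52 and 0.43 from Mock (limma adjusted p = 0.00116 and 0.00488), and Mock overlapped Parental. GUCY1B1, a subunit of the nitric oxide receptor guanylate cyclase, was lower in shCXCR4_I than in Mock (-0.44; limma adjusted p = 0.0474), with arrays that overlapped and 11 of 12 below the array median.

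Of the 5 raft scaffold genes, 1 was lower than Mock in shCXCR4_I and 2 were lower in shCXCR4_II. STOM, a stomatin, was -0.25 and -0.33 from Mock in shCXCR4_I and shCXCR4_II, and 0.41 higher in Mock than in Parental (limma adjusted p = 0.0113, 0.00197 and 0.000544). ERLIN2, of the endoplasmic reticulum, was -0.18 from Mock in shCXCR4_II (limma adjusted p = 0.0431). Of the 14 measured clathrin coat and adaptor genes, which serve the other main endocytic route, 3 were lower than Mock in shCXCR4_I and 5 were lower in shCXCR4_II. The scaffold ITSN1 was -0.60 and -0.40 from Mock in shCXCR4_I and shCXCR4_II, and the clathrin light chain CLTB -0.31 and -0.21 (limma adjusted p = 0.00125, 0.016, 0.00477 and 0.039). The adaptor subunit AP2B1 was -0.36 from Mock in shCXCR4_II, and the endophilin SH3GL1 was 0.27 higher in Mock than in Parental (limma adjusted p = 0.00465 and 0.0132). The median log2 difference of the clathrin list from Mock was -0.19 in shCXCR4_I and -0.14 in shCXCR4_II, beside 0.02 and 0.02 over all genes. Over all genes, 12.2% were lower than Mock in shCXCR4_I and 13.4% in shCXCR4_II. Mock arrays had the widest interquartile range. After quantile normalization 14 and 15 genes of all lists passed in shCXCR4_I and shCXCR4_II, in place of 16 and 20. No clathrin median is given for that setting.

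**Figure D4:**
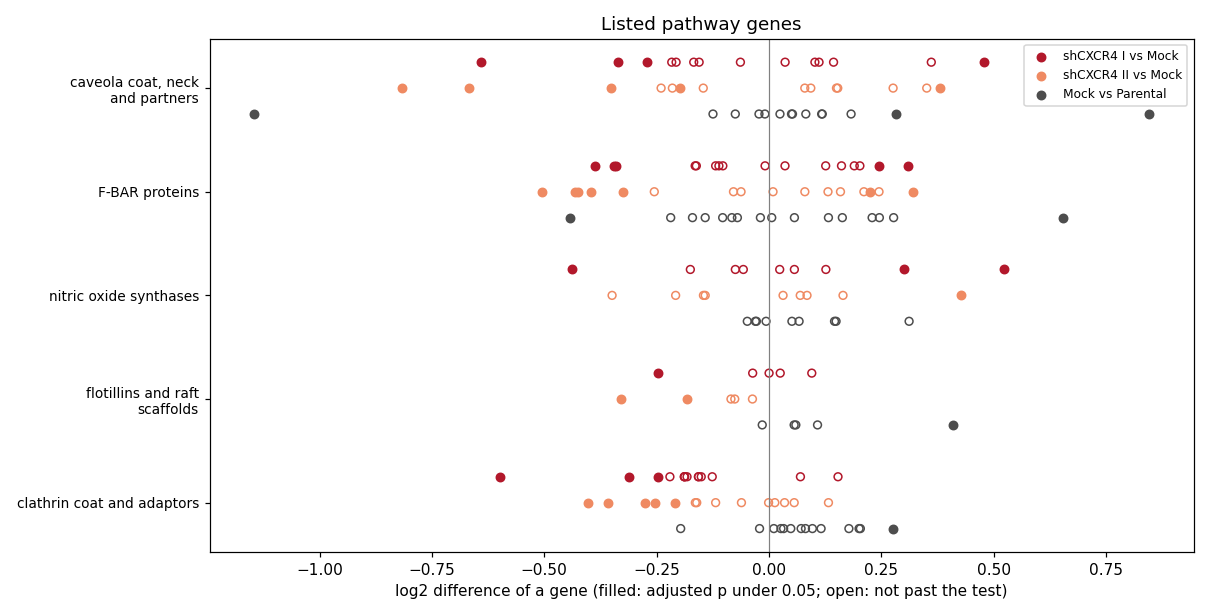
Log2 difference (x axis) of each of the 58 measured pathway genes (1 point each, by its brightest single-symbol probe set) in 5 lists (y axis), with shCXCR4_I against Mock, shCXCR4_II against Mock and Mock against Parental as the rows of points in each list. Filled points passed limma at an adjusted p under 0.05, as 16, 20 and 7 of the 58 genes did in these comparisons, and the filled points of the clathrin list lie left of 0 for both clones.

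Genes with the most similar order of group means were sought among the 10870 genes with a mean log2 value of at least 5 (10871 for NOSTRIN). The measure was the root mean square difference between 4 group means after each gene was centred on its own mean, so it rests on 4 points that share the same 12 arrays, and no p is given. Closest to CAV1 were CCNA1 (0.1498), SCD5 (0.1594), ALDH1A1 (0.1718), CTH (0.1754) and ERBB4 (0.1763). CCNA1, cyclin A1, had group means of 5.70 in shCXCR4_I, 5.63 in shCXCR4_II, 6.25 in Mock and 7.07 in Parental. ALDH1A1, a retinaldehyde dehydrogenase, had 8.99 in shCXCR4_I, 8.75 in shCXCR4_II, 9.61 in Mock and 10.9 in Parental. Both were highest in Parental, lower in Mock and lowest in the clones, as CAV1 was.

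Closest to CAV2 were RAI2 (0.1489), HDAC9 (0.1991), ITGB8 (0.2044), TMEM45B (0.2301) and TMC5 (0.2499). ITGB8, the integrin beta 8 subunit, had 8.72 in shCXCR4_I, 8.29 in shCXCR4_II, 7.25 in Mock and 9.43 in Parental. For NOSTRIN the closest were EEF1A2 (0.4025), TOX3 (0.4524), HSPB3 (0.4859), SOX9 (0.4939) and IL1R2 (0.4979), at larger distances. NOSTRIN itself did not reach the mean log2 value asked of the genes compared. Genes as dim as NOSTRIN were thus left out, and the larger distances are not read as a trait of NOSTRIN. TOX3, a nuclear HMG-box protein, had 4.95 in shCXCR4_I, 4.92 in shCXCR4_II, 8.20 in Mock and 6.24 in Parental. It peaked in Mock as NOSTRIN did, and its Parental mean stood between Mock and the clones. The same 5 genes came closest to each of CAV1, CAV2 and NOSTRIN when the distance was taken over 12 arrays. These are the arrays that gave the group means, so this is no separate check.

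**Figure D5:**
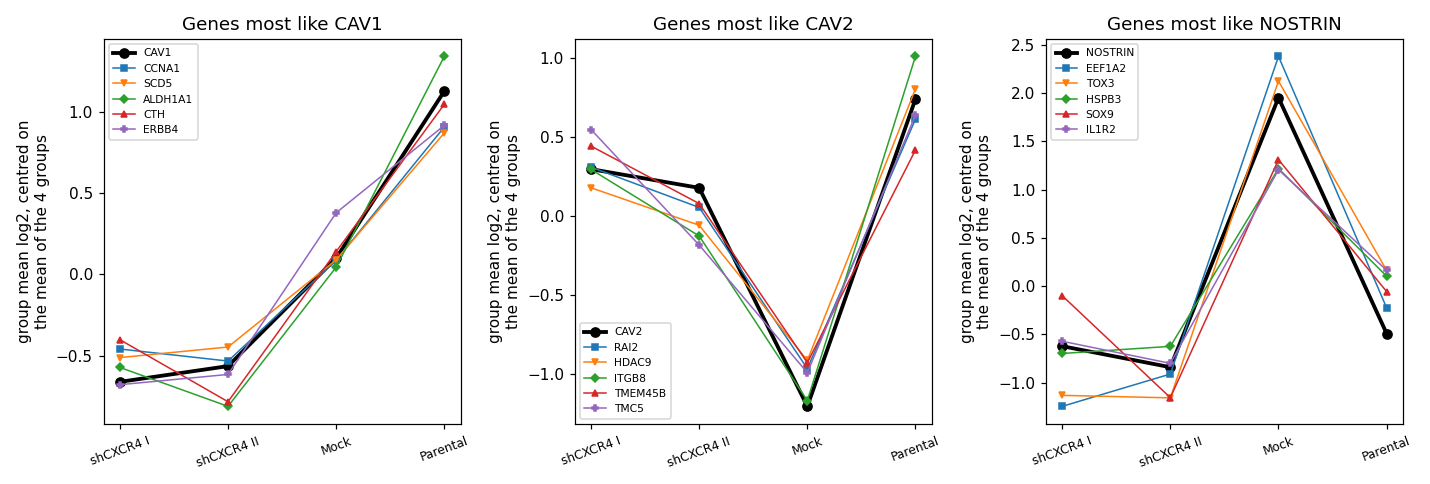
Group mean log2 value centred on the mean of the 4 groups (y axis) for CAV1, CAV2 and NOSTRIN (thick black lines) and the 5 genes closest to each (thin lines), by group (x axis). The CAV1 set rises to Parental in 2 steps, the CAV2 set dips in Mock and the NOSTRIN set peaks in Mock.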

How the data were processed

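The deposited log2 values, one for each array and probe set, were made by the authors with RMA in R 2.6.0, per the submitters' processing notes. Which chip definition file or filter they used is not given in the sources used here. No further normalization was applied. For each of the 12 arrays, 6 µg of total RNA was labelled. The annotation gives a single gene symbol to 41097 of 54675 probe sets, several symbols to 1801 and no symbol to 11777. There are 62 control probe sets. The RefSeq gene table held the Entrez number of 41043 of those with a single symbol. The members and the gene lists were chosen with earlier results of these data known.

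All 41091 single-symbol, non-control probe sets were fitted with limma 3.58.1 in R 4.3.3 (group means over 12 arrays, 8 residual and 5.671 prior degrees of freedom, Benjamini-Hochberg adjustment over all of them, threshold 0.05) after the fit was tested on simulated data. Differences are the first group minus the second, with limma's standard error. A listed gene was read from its probe set with the highest mean. The rule for names took all members, CXCR4, in each list the 2 genes with the largest difference among those past the test in the comparisons of the clones with Mock and of Mock with Parental, and the 5 genes closest to CAV1, CAV2 and NOSTRIN. The marker lists, also for fibroblast, smooth muscle, adipocyte and leukocyte genes, gave mean log2 values of 4.17 to 4.49, 4.91 to 5.04, 3.58 to 3.82 and 3.75 to 4.11 over the arrays. The number of arrays limits the precision. Alternatives were other feature sets, filters on dim probe sets, normalizations, variance models, fits restricted to the groups compared, a replicate block and leaving out each array. Promoter windows were read from RefSeq tables with Python 3.11.15, which held 6 of the 8 members (not CAVIN1 and CAVIN3).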

Additional observations from a re-analysis of the deposited data

Results flagged for a closer look

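No probe set of the 8 caveola genes was picked out for a closer look. The genes that were are some of the others named in the text, each because its effect against Mock differed between shCXCR4_I and shCXCR4_II by the limma test of that difference. That test was also passed by named genes not listed here, among them CDH1 (0.97; limma adjusted p = 4.43e-06) and FCHO2. SOX9, TMC5, ITGB8 and CTH came into the text through the likeness of their group means to those of NOSTRIN, CAV2 or CAV1. Their p-values rest on the same group means and are no more than a description. SOX9 was -1.41 from Mock in shCXCR4_I and -2.47 in shCXCR4_II, a difference of 1.06 (limma adjusted p = 5.41e-06). TMC5 was 1.54 and 0.81 from Mock, a difference of 0.73 (limma adjusted p = 0.000258). ROR1 was -0.06 and -0.67 from Mock, a difference of 0.60 (limma adjusted p = 0.00155). ITGB8 was 1.46 and 1.04 from Mock, a difference of 0.42 (limma adjusted p = 0.00747). CXCR4 on 217028_at was -1.49 and -1.96 from Mock, a difference of 0.47 (limma adjusted p = 0.00899), while its other probe sets differed by 0.17 and 0.26 and did not pass (limma adjusted p = 0.463 and 0.262). ERLIN2 was 0.09 and -0.18 from Mock, a difference of 0.28 (limma adjusted p = 0.0162). CTH was -0.54 and -0.92 from Mock, a difference of 0.38 (limma adjusted p = 0.0284). SPC25 was -0.78 and -0.41 from Mock, a difference of -0.37 (limma adjusted p = 0.0407). MET was 0.03 and -0.22 from Mock, a difference of 0.24 (limma adjusted p = 0.0474).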

How the results depend on the processing

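No called difference of a member probe set changed its sign under any alternative run. Of the recomputed differences 2098 were unchanged, 84 lost the call, 56 gained it and 3 moved by more than the replicate spread. The unchanged ones include differences of CAV2 and NOSTRIN from Mock and Parental, which were not tested and have no side of the threshold to keep. The 3 that moved are of CAV2 and were not tested either. Of 14 member probe sets (of the 6 tested genes where each gene counts once), shCXCR4_I against Mock gave 8 calls with a trended and robust variance and 7 with array weights, in place of 4. For shCXCR4_II against Mock there were 3 with 1 probe set per gene and 4 with only the groups compared, in place of 7. For Mock against Parental there was 1, in place of 2, with 1 probe set per gene, with a mean over each gene's probe sets and with a mean log2 of at least 6, which is CAV1 in each. For shCXCR4_I against Parental there were 4 in place of 7 with 1 probe set per gene, with the gene mean and with the replicate block. For shCXCR4_II against Parental there were 2 with 1 probe set per gene and 3 with the gene mean, in place of 6. For shCXCR4_I against shCXCR4_II there was 1 with each filter on dim probe sets and with array weights, and 2 with the robust variance, in place of 0. Among listed genes, shCXCR4_II against Mock gave 12 with only the groups compared (20 as reported), Mock against Parental 11 with a mean log2 of at least 6 (7), shCXCR4_II against Parental 17 with array weights (11), and shCXCR4_I against shCXCR4_II 7 with either filter and 6 with the robust variance (3). Gene-level settings count fewer features by construction, and otherwise the cause was not tested.

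Leaving out each array in turn gave 2 to 6 member probe sets for shCXCR4_I against Mock, 3 to 7 for shCXCR4_II against Mock and 2 for Mock against Parental. It gave 3 to 8 for shCXCR4_I against Parental, 3 to 6 for shCXCR4_II against Parental and 0 to 1 for the clones. These are counts of probe sets, and a gene with several probe sets can give several. Without Mock replicate 2 or 3, shCXCR4_I against Mock gave 2, and without either of these or shCXCR4_II replicate 2, shCXCR4_II against Mock gave 3 (4 without shCXCR4_II replicate 1). Without shCXCR4_I replicate 3 or Parental replicate 1, shCXCR4_I against Parental gave 3, and without shCXCR4_I replicate 1 or Parental replicate 2 or 3 it gave 4. Without Parental replicate 1, shCXCR4_II against Parental gave 3, and without shCXCR4_II replicate 3 the clones gave 1. Listed genes ranged over 13 to 16, 12 to 19, 5 to 10, 10 to 13, 7 to 12 and 2 to 3 in the same order of comparisons, with 12 without shCXCR4_II replicate 2 and 13 without Mock replicate 3 for shCXCR4_II against Mock, and 7 without shCXCR4_II replicate 2 against Parental. The labels state no pairing by replicate number. Among same-number pairs of arrays, 1 of 18 had a correlation of deviations over 0.1 (range -0.101 to 0.183). Among different-number pairs it was 5 of 36 (range -0.215 to 0.263). These correlations run over all probe sets tested, and a pairing that touched only some of them was not tested. With the replicate block the member probe sets called in shCXCR4_I against Parental were 4. Probe sets below the array median on most arrays (among members CAVIN2, 213426_s_at, 233705_at and NOSTRIN outside Mock, and among the 15 list genes named DNM3 and GUCY1B1) limit what can be read from them.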
